A study of Brassica napus with 23 samples.

Results

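Chromosomes A10 and C09 of Brassica napus (oilseed rape) were described from the whole table of gene counts. Every gene whose chromosome entry was exactly A10 or C09 was taken, and genes of the unplaced parts of these chromosomes were left out. This gave 2772 genes on A10 and 5084 genes on C09, 7856 of the 101040 genes counted. Shoots and roots were sequenced after plants had received 15 mL of a culture of the bacterium Pseudomonas chlororaphis PA23, used as a biocontrol agent, or LB broth as the negative control. Harvest was 24 h or 7 d after treatment. The groups were PA23 and control shoots at 24 h, PA23 and control shoots at 7 d, and the same 4 groups in roots, with 3 libraries each except root controls at 24 h, which had 2. All plants were stated to have grown for 14 days and to have been treated 7 days after planting, which leaves the age at the 24 h harvest uncertain. No cultivar and no statement on separate plants per replicate were given, so a p-value measures no more than how these libraries vary, part of which may be technical.

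Brassica napus is an allotetraploid: it carries an A subgenome, descended from a relative of Brassica rapa, and a C subgenome, descended from a relative of Brassica oleracea. Most genes therefore exist as homoeologues, copies on an A and a C chromosome that derive from the same ancestral gene. Homoeologous chromosomes can pair at meiosis, and a segment of one can be replaced by or exchanged with the matching segment of the other, which changes the number of A and C copies of the genes there. The relative expression of homoeologues is called homoeologue bias.

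Depth ranged from 621894 to 721351307 counts per library, and 6 of the 23 libraries had under 2000000 counts. Levels per length are therefore given over the 17 deeper libraries (8 of shoots, 9 of roots). CPM is the counts relative to a library's total after TMM scaling. Where genes are compared with each other, it is given as CPM per kb of the gene's span. Shares, fits and the CPM of genes named for a called difference use all libraries of the groups compared. There a value from a library under 2000000 counts can rest on few counts. Genes of A10 and C09 held between 7.27% and 8.01% of all counts of a library. The 2 control libraries of replicate 1 at 7 d stood apart from the rest on the distal parts of these chromosomes, as described below. The one of shoots also differed most from its group over the abundant genes of the whole table. Results that rest on them are also given without them where this was computed. The labelled tissues could not be checked by marker names, because the table has gene IDs only and only 307 of 7856 members (3.91%) could be tied to an entry of RefSeq's Da-Ae annotation, which gives symbols without descriptions. For the same reason genes are given by ID, without a function, and positions follow the deposited table, whose build the sources used here do not name.

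The parts of A10 and C09 that correspond were located from the gene order alone, without any count. Genes were aligned along the 2 chromosomes by the length of their span and their strand. The main block ran in the same orientation from position 10180479 to 16336288 of A10 and from 38023416 to 48228024 of C09. It spanned 1304 A10 genes (47.0% of the chromosome) and 1577 C09 genes (31.0%). Its alignment score was 381, against 170 for the best match of A10 with C05 and 11.8 for the best match with any of the other chromosomes. The match with C05 lay at the other end of A10, from 89016 to 2685296, so the beginning of A10 did not correspond to C09 in gene order. A further 5 short blocks beside the main one held 106 pairs, and 3 of these 5 were inverted. In the main block, 831 pairs had the same strand and similar spans, and these are called pairs here. They were matched by position and span, not by sequence, so a single pair can be wrong where genes are repeated in tandem. Against the gene order of the Da-Ae annotation, 28 of 28 A10 genes with a known place there fell inside the matching stretch, with a median offset of 0.79 genes between the routes and a largest offset of 16.6 genes.

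The share of genes without expression was higher on C09 than on A10. A gene is called silent when its mean level was under 0.1 CPM per kb in both tissues, and high when it was at least 1 CPM per kb in either. On A10, 694 genes (25.04%) were silent and 1642 (59.2%) were high. On C09, 1799 genes (35.4%) were silent and 2480 (48.8%) were high. Over all A chromosomes 26.6% of genes were silent, and over all C chromosomes 34.9%, so each of the pair lay near the value of its own subgenome. No count in any library was recorded for 243 A10 genes (8.77%) and 757 C09 genes (14.9%).

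Gene density and silence changed along both chromosomes in opposite directions. In the main block the gene density was 212 genes per Mb on A10, of which 21.0% were silent, and 155 genes per Mb on C09, of which 29.7% were silent. Between 3 and 8 Mb of A10 there were 76.3 genes per Mb, and 38.3% were silent. Between 20 and 35 Mb of C09 there were 61.8 genes per Mb, and 48.1% were silent. The 1 Mb bin with the highest silent share on A10 was the one from 3 to 4 Mb, with 54.4% of 57 genes. On C09 it was the bin from 28 to 29 Mb, with 66.0% of 50 genes. The first 10 Mb of C09, which have no counterpart on A10 in gene order, held 133.6 genes per Mb with 29.2% silent, a value close to that of the block shared with A10.

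Of 392 windows of 20 neighbouring genes, 5 had at least 15 silent genes, and all 5 were on C09. The most silent window, with 18 of 20, ran from BnaC09g16410D to BnaC09g16600D (13442260 to 13472134). The others ran from BnaC09g21210D to BnaC09g21400D (16 silent), BnaC09g25010D to BnaC09g25200D (15), BnaC09g27010D to BnaC09g27200D (15) and BnaC09g39410D to BnaC09g39600D (15). Only the last of these lies in the block shared with A10. The 5 windows contained 79 silent genes, of which 46 had no count in any library. The longest unbroken run of silent genes had 16 genes on C09, from BnaC09g16480D to BnaC09g16630D within 21.2 kb. On A10 the longest run had 12 genes, from BnaA10g13910D to BnaA10g14020D within 56.1 kb. The number of silent windows depended on the window and the threshold: it was 20 with windows of 10 genes, 2 of them on A10, and 0 with windows of 40 genes.

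**Figure D1:**
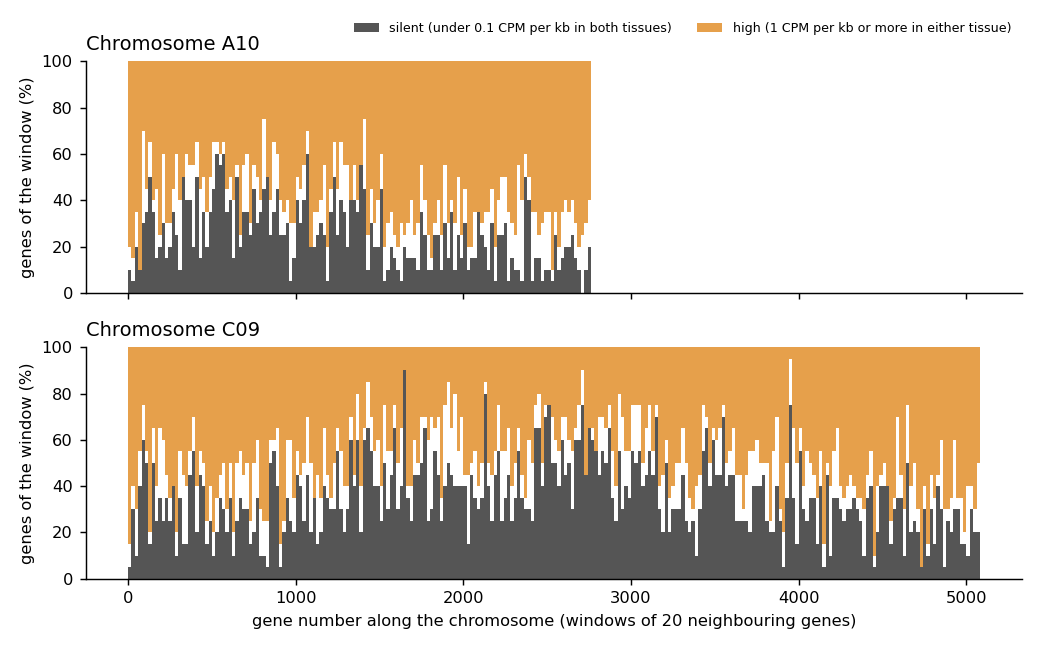
Share of silent genes (grey, from the bottom) and of high genes (orange, from the top) in windows of 20 neighbouring genes, in percent, against the gene's number along A10 and C09; white is the remainder. C09 has the 5 windows with at least 15 silent genes, the highest with 18 of 20, and A10 has none.

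A few genes carried much of the signal in shoots, more so on C09. The 10 most abundant genes of C09 held 16.3% to 24.8% of that chromosome's counts in the 12 shoot libraries (median 21.4%) and 1.28% to 2.05% in the 11 root libraries (median 1.80%). The 10 most abundant genes of A10 held 11.98% to 17.26% in shoots (median 15.3%) and 5.84% to 7.14% in roots (median 6.56%). These genes were ranked over both tissues. On C09 all except BnaC09g39920D had at most 7.20 CPM in roots. On A10 only BnaA10g07350D, BnaA10g26060D and BnaA10g04360D were near 0 in roots, and the others had 189 to 342 CPM there. A low share in roots therefore follows in part from the choice, mainly on C09. With the 10 leading genes picked in each tissue, they held 16.5% in shoots and 9.69% in roots on A10, and 21.2% in shoots and 9.68% in roots on C09. By level per length, the leading genes in shoots were BnaC09g00220D with a mean of 1814 CPM per kb (range 1309 to 2438 over 8 shoot libraries, against 3.83 to 7.90 in 9 root libraries) and BnaC09g30700D with 1721 (1196 to 2176, against 0.252 to 1.13 in roots). On A10 they were BnaA10g07350D with 1309 CPM per kb (897 to 1698, against 0.552 to 1.45 in roots) and BnaA10g04360D with 499.9 (353 to 692, against 0.117 to 0.574 in roots). The leading genes in roots were present in both tissues. BnaC09g09060D had 684 CPM per kb in shoots and 628 in roots, BnaA10g27170D had 305 and 248, and BnaA10g11350D had 318 and 187. BnaC09g39910D, with a span of only 66 bases, had 387 CPM per kb in shoots and 616 in roots, and its level per length is accordingly uncertain.

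The A10 share, that is the counts on A10 as a percentage of the counts on A10 and C09 together, was lower in shoots than in roots. It ranged from 35.8% to 37.6% in the 12 shoot libraries (median 36.6%) and from 35.2% to 39.3% in the 11 root libraries (median 38.9%). All shoot libraries lay below 10 of the 11 root libraries, whose lowest was 38.7%; the 11th, control 7 d replicate 1, lay at 35.2%. The means were 36.7% ± 0.606 in shoots and 38.6% ± 1.15 in roots (SD), a difference of -1.96 percentage points (p = 0.00032, two-sided permutation test with 100000 resamples; 0.00224 after Benjamini-Hochberg adjustment over the 7 share comparisons). All shoots carried the same sequencing run in their labels. Among libraries of that run, which included 4 of roots, the difference was -1.48 points. These root libraries included control 7 d replicate 1, at 35.2%. The others were PA23 24 h replicate 1, control 24 h replicate 3 and control 7 d replicate 3, at 39.3%, 39.2% and 38.9%. The difference within the run therefore rests in part on control 7 d replicate 1.

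That direction was not kept without the abundant genes. With the 10 most abundant genes of each chromosome left out, the A10 share was 38.5% ± 0.61 in shoots (range 37.3% to 39.2%) and 37.5% ± 1.16 in roots (34.1% to 38.2%), a difference of 1.03 points in the other direction. In shoots the genes left out held more of the C09 counts (median 21.4%) than of the A10 counts (15.3%). In roots they held more of the A10 counts (6.56%) than of the C09 counts (1.80%). Leaving them out therefore raises the A10 share in shoots and lowers it in roots. Since they were chosen by their level in these libraries, no test is given. The block that both chromosomes share spans 1304 A10 and 1577 C09 genes, so the share within it also reflects gene number. It was 45.2% ± 1.08 in shoots and 44.4% ± 2.03 in roots. The difference of 0.721 points did not pass the test (permutation p = 0.38). Without the 7 d control libraries of replicate 1 that difference was 0.394 points (permutation p = 0.031, adjusted p = 0.217). In shoots the A10 share was also lower at 7 d, with 36.2% ± 0.35, than at 24 h, with 37.2% ± 0.34 (6 libraries each). The difference of -0.974 points passed the test (exact permutation p = 0.00433, adjusted p = 0.0152), but it was -0.289 points without the abundant genes (exact p = 0.448) and -0.685 points in the shared block (exact p = 0.329). Without control replicate 1 of 7 d, the difference in the block was -0.135 points (exact p = 0.658). In roots the share averaged 38.3% ± 1.5 at 7 d (6 libraries) and 39.1% ± 0.201 at 24 h (5 libraries; difference -0.814, exact permutation p = 0.0779). It was -2.15 points within the first of the 2 sequencing runs (2 libraries against 2) and -0.124 within the second (4 against 3). In the first run the 7 d libraries were control replicate 1, at 35.2%, and control replicate 3, at 38.9%. The 24 h libraries of that run were at 39.3% and 39.2%, so the -2.15 points rest mostly on control replicate 1. Without control replicate 1 of 7 d the difference over both runs was -0.207 points.

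The A10 share did not separate PA23 from control beyond the test in any tissue or harvest. With 3 libraries against 3 the exact permutation test cannot go below 0.1. The nearest was shoots at 7 d, where the share was 36.4%, 36.6% and 36.4% with PA23, against 36.1%, 35.9% and 35.8% in controls. These groups did not overlap, and the difference of 0.598 points had the smallest p the design allows (exact p = 0.1, adjusted p = 0.175). The other differences were 0.366 points in shoots at 24 h (exact p = 0.3), 0.185 in roots at 24 h, where 3 libraries stood against 2 (exact p = 0.6), and 0.991 in roots at 7 d (exact p = 1). The last became -0.279 without control replicate 1 and was -0.391 within the run that held both groups (3 libraries against 1). In roots at 24 h the differences within the runs were 0.0791 (1 against 1) and 0.347 (2 against 1).

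**Figure D2:**
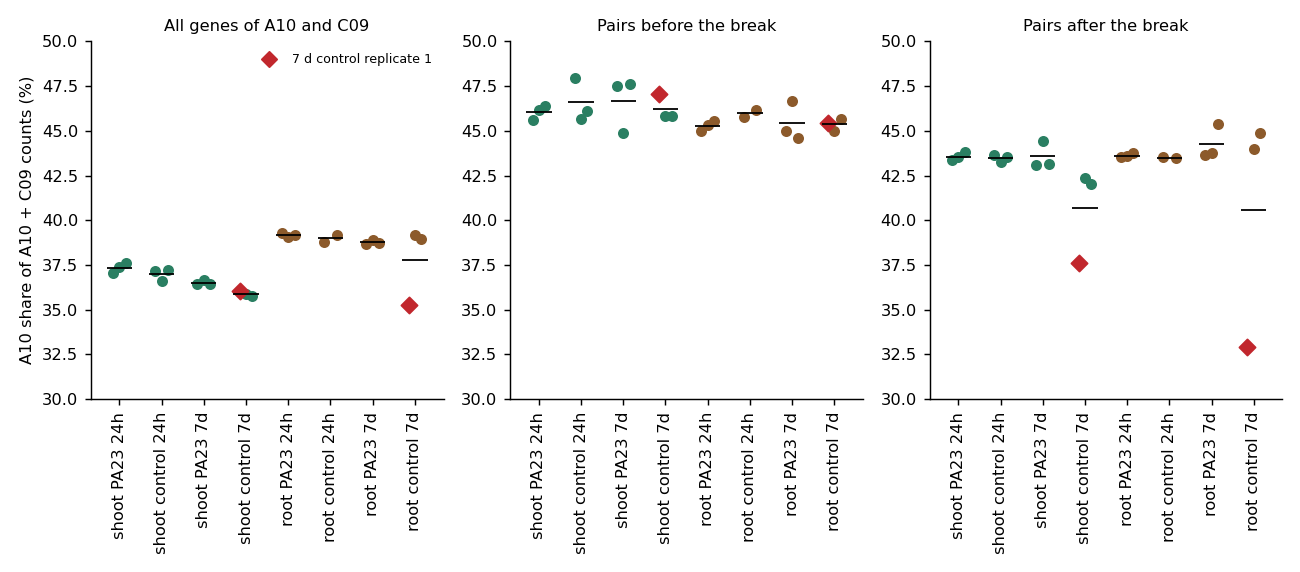
A10 share of the A10 and C09 counts (percent, axis from 30 to 50) in each library, over all genes, over the 277 pairs before and the 554 pairs after the break described in the text; points are libraries, lines group means, and red diamonds the 7 d control libraries of replicate 1. After the break these libraries lie at 37.6% in shoots and 32.9% in roots, below all others.

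In the root control library of replicate 1 at 7 d, the balance between A10 and C09 changed at one place along the shared block and stayed changed to the end. For each pair with a mean of at least 2 CPM in both members, the log2 ratio of the A10 to the C09 member was set against its median over the other deep libraries of the same tissue. The point that best divided the values of this library lay between BnaA10g17080D and BnaA10g17090D (A10, 12779729 to 12791412), and between BnaC09g40270D and BnaC09g40310D (C09, 42767270 to 42789664). Before it, the median shift over 128 pairs was 0.01 on the log2 scale, and 59 of the pairs were shifted toward C09. After it, the median shift over 311 pairs was -0.62, and 308 of the 311 pairs (99.0%) were shifted toward C09. Since the break was placed by these values, they are a description and carry no test.

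The shoot control library of replicate 1 at 7 d, which had no part in placing that break, was shifted in the same stretch. Its median shift was -0.05 before the break (135 pairs) and -0.29 after it (298 pairs), where 85.9% of the pairs were shifted toward C09. Dividing this library on its own placed the break between BnaA10g17340D and BnaA10g17370D, at 12864712 to 12883556 of A10. In the other 8 deep root libraries the median shift after the break lay between -0.03 and 0.03, and in the other 7 deep shoot libraries between -0.05 and 0.02. In the 6 shallow libraries it lay between -0.14 and 0.10, the lowest in shoot control 7 d replicate 2. Among the deep libraries only the 2 labelled control, 7 d, replicate 1 stood apart, and they were shifted in the same direction.

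The shift was present on each chromosome taken alone, over all its genes with at least 2 CPM. In the root library, the 596 A10 genes after the break had a median of -0.34 on the log2 scale against the other libraries, and the 539 C09 genes after the break had 0.27. Before the break the medians were 0.01 on A10 and 0.02 on C09, and over the genes of the other chromosomes 0.02. In the shoot library the medians after the break were -0.13 on A10 (567 genes) and 0.13 on C09 (507 genes), against 0.02 and 0.06 before it. In windows of 25 pairs, all 11 windows after the break were shifted toward C09 in both libraries, by -0.74 to -0.50 in the root library and by -0.50 to -0.17 in the shoot library. The 11 windows of the other deep libraries lay between -0.20 and 0.13. The cause of the shift was not tested.

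**Figure D3:**
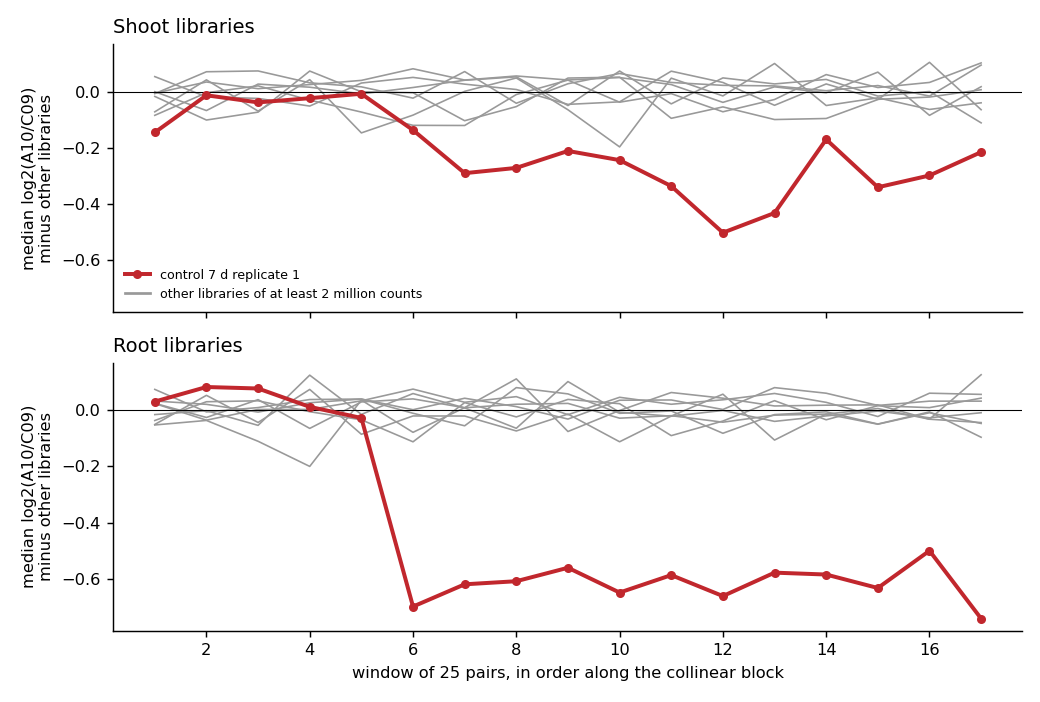
Median log2 ratio of the A10 to the C09 member in windows of 25 pairs, minus the median of the other deep libraries of the tissue, in order along the shared block, for shoot (top) and root (bottom) libraries of at least 2000000 counts. The red lines (control 7 d replicate 1) fall near window 6 and stay between -0.50 and -0.17 in the shoot library and between -0.74 and -0.50 in the root library, while the grey lines stay near 0.

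Expressed as a share of counts, the pairs after the break gave A10 32.9% in this root library and 37.6% in this shoot library. The 95% Wilson intervals were 32.8% to 33.0% and 37.5% to 37.8%. They cover counting error only and take counts as independent. The other root libraries gave 43.5% to 45.4% and the other shoot libraries 42.0% to 44.5%. Before the break, the 2 libraries gave 45.4% and 47.0%, inside the ranges of the other root libraries (44.6% to 46.7%) and shoot libraries (44.9% to 48.0%). In control shoots at 7 d, replicates 2 and 3 also gave the lowest values among the remaining shoot libraries after the break, 42.4% and 42.0%, against 43.1%, 44.5% and 43.2% with PA23. Over genes above 100 CPM in the whole table, replicates 2 and 3 of that control group had a coefficient of variation of 4.804% between them, while replicate 1 differed from them by 39.24% and 39.20%, the highest values of any pair within a group.

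Most pairs of the shared block were expressed from both chromosomes, with a slight excess of the C09 member. Of the 831 pairs, 526 were high on both chromosomes, 85 were silent on both, 34 were high on A10 and silent on C09, and 14 were high on C09 and silent on A10. The remaining 172 lay between these classes. The level of the A10 member and that of the C09 member had a Spearman correlation of 0.75 over the 831 pairs, which share libraries and depth. In shoots, 580 pairs had a member at 1 CPM per kb or more, and in 371 of them (64.0%) both members were within 2-fold of each other. The C09 member was over 2-fold higher in 129 (22.2%) and the A10 member in 80 (13.8%), and the median log2 ratio of A10 to C09 was -0.30. Roots gave nearly the same picture: of 582 pairs, 373 (64.1%) were within 2-fold, C09 was over 2-fold higher in 137 (23.5%) and A10 in 72 (12.4%), with a median log2 ratio of -0.31.

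The side of the bias was steady across libraries in many pairs. Among the 526 pairs high on both chromosomes, the C09 member was above the A10 member in every one of the 17 deep libraries in 177 pairs, and the A10 member was above in every library in 39. Without the 7 d control libraries of replicate 1, these numbers were 179 and 57 over 15 libraries. By more than 2-fold in every library, C09 led in 33 pairs and A10 in 8 (9 without those libraries).

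Among the kept pairs, no window had a median that was silent on one chromosome and high on the other. In 41 windows of 20 consecutive pairs, the median level lay between 0.684 and 9.91 CPM per kb on A10 and between 1.09 and 8.53 on C09, so in none was the median of a side silent. Genes left without a kept partner do not enter these medians. Over all genes, the silent C09 window from BnaC09g39410D to BnaC09g39600D had 15 silent and 1 high gene of 20, while the windows around the matching part of A10, BnaA10g16410D to BnaA10g16600D and BnaA10g16610D to BnaA10g16800D, had 4 and 3 silent and 15 and 14 high genes. The 48 pairs with one member high and its partner silent were spread out, and 16 of the 41 windows held none. A window held at most 4 pairs that were high on A10 and silent on C09, and at most 2 of the opposite kind. In 28 of the 34 pairs high on A10, and in 12 of the 14 high on C09, the high member exceeded its partner in every deep library. These pairs were chosen by their means over the same libraries, so this follows in large part from the choice. The silent partner had no count in any library in 7 of the 34 pairs and in 3 of the 14.

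The most biased pairs had a silent or nearly silent member. BnaA10g13900D had 86.5 to 135 CPM per kb in shoots and 59.7 to 99.6 in roots, and its C09 partner BnaC09g36440D had 0 counts in the deep shoot libraries and 50 counts in the 9 deep root libraries. BnaA10g19590D had 28.0 to 41.2 CPM per kb in shoots and 20.6 to 30.1 in roots, while BnaC09g43330D had no count in these libraries. BnaA10g19290D had 10.52 to 18.88 in shoots, against 2 counts in all for its partner BnaC09g42980D there. In roots BnaA10g17990D had 58.5 to 106 CPM per kb, against at most 0.465 for BnaC09g41460D. These 4 pairs were on the side of A10 in both tissues.

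On the side of C09, BnaC09g36540D had 85.0 to 127 CPM per kb in shoots and 52.0 to 83.6 in roots, against at most 0.085 and 0.331 for its partner BnaA10g14070D. The means of BnaC09g36540D, 116 in shoots and 67.0 in roots, were near those of BnaA10g13900D, 118 and 77.6. Pairs were matched by position and span, so whether these genes are homoeologues of each other was not tested. Both pairs may therefore be misplaced rather than one-sided. BnaC09g48610D had 76.6 to 133 in shoots and 4.68 to 6.98 in roots, and BnaA10g23930D had 2 counts in all deep root libraries and 0 in shoots. BnaC09g39380D had 26.1 to 41.5 in shoots, where BnaA10g16490D had 0 counts. BnaC09g37830D had 24.2 to 41.5 in roots, against at most 0.030 for BnaA10g15360D. BnaC09g45360D had 19.5 to 33.3 in roots, while BnaA10g21280D had 0 counts. Among the named genes are also 2 fixed by ID, taken beforehand as the A10 and C09 copies of the same gene. BnaA10g22080D had a mean of 0.145 CPM per kb in shoots and 0.114 in roots, and BnaC09g46500D had 0.575 in shoots and 0.335 in roots. The alignment did not join these 2. It joined BnaA10g22080D to another C09 gene, BnaC09g46540D, which had 2.45 in shoots and 0.799 in roots.

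**Figure D4:**
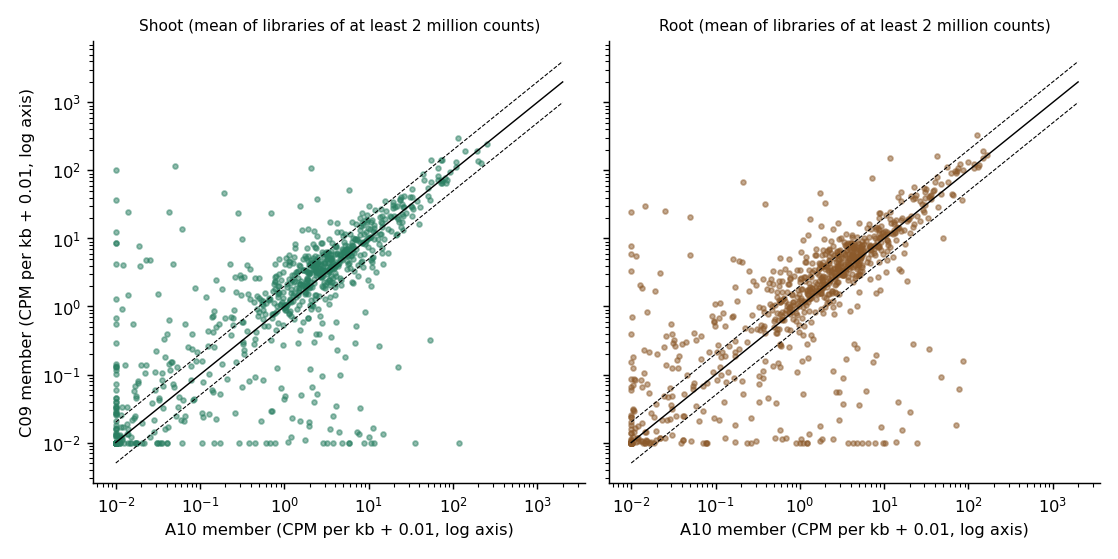
Level of the C09 member against the level of the A10 member (CPM per kb plus 0.01, log axes) for the 831 pairs in shoots (left) and roots (right); the solid line marks equal levels and the dashed lines 2-fold. In shoots 129 pairs with an expressed member lie over 2-fold on the side of C09 and 80 on the side of A10; in roots these numbers are 137 and 72.

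Most genes of both chromosomes differed between the tissues, as did most genes of the whole table. In the joint fit 5357 of the 7856 genes passed the filter on low counts. Of these, 3830 were called different between shoots and roots (edgeR quasi-likelihood test, adjusted p under 0.05), 71.5%, against 73.2% of all genes tested. They were 1666 genes higher in shoots (31.1%, against 31.5% of all genes) and 2164 genes higher in roots (40.4%, against 41.7%). A10 had 672 higher in shoots and 840 higher in roots of 2104 tested, and C09 had 994 and 1324 of 3253. These shares lay near the background of the whole table. The median log2 difference was -0.14 over the members and -0.16 over all genes. It was 0.05 and 0.02 when the shoot control library of replicate 1 at 7 d was left out, with 1959 members higher in shoots and 1872 higher in roots, so the side with more genes changed with that library. With both 7 d control libraries of replicate 1 left out, 1597 were higher in shoots and 2180 in roots, and DESeq2 gave 1577 and 1978 with a median of 0.09.

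Along C09, the balance between shoot and root genes was different in the gene-poor middle. From 20 to 35 Mb, 176 of 467 tested genes were higher in shoots (37.7%) and 148 in roots (31.7%). In the first 10 Mb it was 264 (28.1%) and 409 (43.5%) of 940, and in the shared block 338 (30.6%) and 459 (41.6%) of 1103. The shared block of A10 gave 330 (31.7%) and 424 (40.7%) of 1042. These regional differences were not tested. In bulk tissue, fewer cells of a type and less RNA per cell cannot be told apart.

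Genes with the same tissue preference stood side by side in several places. The longest run of tested neighbours higher in shoots had 11 genes on C09, from BnaC09g29090D to BnaC09g29290D within 37.3 kb, with a median log2 difference of 5.72. The longest run higher in roots also had 11 genes, from BnaC09g49480D to BnaC09g49640D within 66.9 kb (median -2.41). On A10 the longest runs had 7 genes higher in shoots, from BnaA10g16780D to BnaA10g16850D within 13.3 kb (median 6.59), and 9 genes higher in roots, from BnaA10g17920D to BnaA10g18010D within 37.4 kb (median -1.34). The sources used here do not say how reads were assigned among near-identical neighbours or A and C copies, so members of such runs may share reads.

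Single genes are named here among called genes with mean log2 CPM of at least 1 and no overlap between the tissues. Those with the largest difference were nearly absent from the other tissue. BnaC09g39220D had 4.87 to 29.5 CPM in the 12 shoot libraries (median 11.4) and no count in the 11 root libraries, at least 5173-fold higher in shoots when 3 counts are allowed over all root libraries (adjusted p = 1.53e-09, edgeR). The bound was 1964-fold without PA23 24 h replicate 1 of roots, the deepest library, an alternative chosen after seeing the data. BnaC09g34640D had 11.4 to 21.0 CPM in shoots (median 18.5) and 5 counts in all root libraries, every one of them in that deepest library (log2 difference 12.75, SE 0.33, adjusted p = 1.21e-22). In the other direction, BnaC09g10680D had no count in the shoot libraries and 41.1 to 104 CPM in roots (median 85.3), at least 12732-fold lower in shoots on the same terms (adjusted p = 1.75e-22). BnaC09g24040D had 0 to 0.244 CPM in shoots and 164 to 545 CPM in roots (median 368; log2 difference -14.83, SE 0.27, adjusted p = 3.5e-26). In these 4 genes the shoot and root libraries did not overlap, which was a condition for naming them. With the sequencing run as a covariate, the first 2 were not called (adjusted p = 1 in edgeR).

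Paired genes mostly had the same tissue preference. Both members were tested in 657 pairs, and their log2 differences between shoot and root had a Spearman correlation of 0.79. Both members were called higher in shoots in 169 pairs and both higher in roots in 224, and neither was called in 116. A single member was called in 124 pairs. In 24 pairs the members were called in opposite directions, in 8 with A10 higher in shoots and in 16 with C09 higher in shoots. Among the 526 pairs high on both chromosomes, the ratio of A10 to C09 differed by a median of 0.33 on the log2 scale between tissues, and by over 2-fold in 88. In 10 of them, the side that led by over 2-fold in shoots trailed by over 2-fold in roots.

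An example of the opposed pairs, BnaA10g19630D with its partner, was chosen after its values were seen; the other pair given here is among the most biased in roots. BnaA10g19630D had 0.27 CPM per kb in shoots and 22.2 in roots, while its partner BnaC09g43360D had 23.9 in shoots and 0.273 in roots. BnaA10g21510D had 13.8 in shoots and 71.7 in roots, while BnaC09g45710D had 26.7 in shoots and 0.00832 in roots, where it had 38 counts in the 9 deep libraries. In the first pair each chromosome held the higher copy in a different tissue, and in the second both copies were high in shoots and the A10 copy alone was high in roots.

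**Figure D5:**
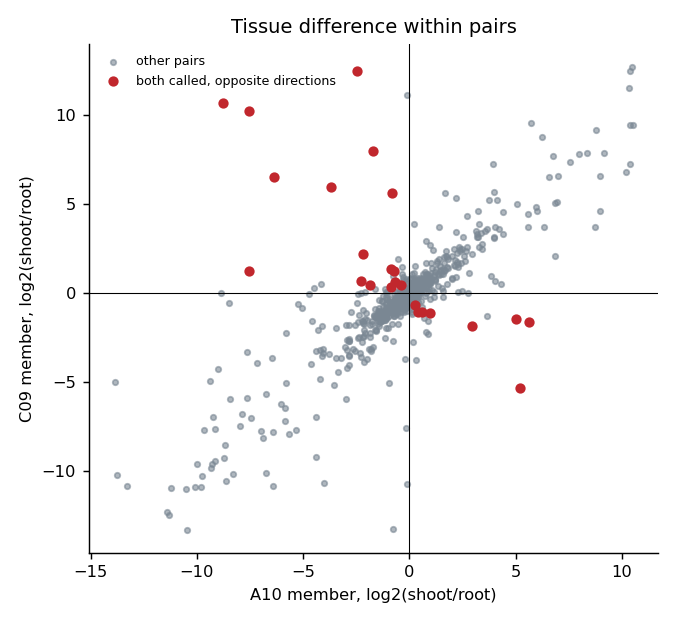
Log2 difference between shoot and root of the C09 member against that of the A10 member, for the 657 pairs tested in both; red points are the 24 pairs called in opposite directions. The 169 pairs with both members higher in shoots lie at the upper right and the 224 with both higher in roots at the lower left.

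Between harvests, the genes of A10 and C09 changed about as often as other genes. In roots 5039 members were tested, and 283 were called at 7 d against 24 h (5.62%, against 5.81% of all genes): 158 rose (3.38% of all genes did) and 125 fell (2.43%). In shoots 4548 members were tested, and 217 were called (4.77%, against 4.46% of all genes): 112 rose (2.08% of all genes) and 105 fell (2.38%). The median log2 change was -0.05 over the members and -0.04 over all genes in roots, and -0.01 and 0.01 in shoots. In roots 49 A10 genes rose and 57 fell, and 109 C09 genes rose and 68 fell. Without control replicate 1 of 7 d, whose distal A10 genes were lower and C09 genes higher, 62 A10 genes rose and 43 fell, and 109 C09 genes rose and 75 fell. In shoots 39 A10 genes rose and 55 fell, and 73 C09 genes rose and 50 fell. Without that group's replicate 1 in shoots, 65 A10 genes rose and 82 fell, and 100 C09 genes rose and 93 fell. In roots, dropping control 24 h replicate 2 left 148 calls, and dropping replicate 3 of that group left 184. In shoots the count was 132 without control 24 h replicate 2 and 130 without PA23 24 h replicate 2. Leaving out shoot control 7 d replicate 1 gave 340 calls in shoots, and leaving out PA23 7 d replicate 1 or replicate 3 gave 85 or 91. Those 2 PA23 libraries had a coefficient of variation of only 1.51% between them, and with near-identical libraries summed and counted once 74 calls were left in shoots.

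Within pairs, a harvest change in one member was often not called in the other, and no pair changed in opposite directions. In roots both members rose in 5 pairs and both fell in 11, while among pairs with both tested a single member was called in 29. In shoots both rose in 5 and both fell in 7, and a single member was called in 28. Among called genes with mean log2 CPM of at least 1 and no overlap of harvests, the pair BnaA10g12780D and BnaC09g35160D rose most in roots. BnaA10g12780D had 9.20, 5.25 and 4.18 CPM with PA23 and 14.0, 7.69 and 6.13 CPM in controls at 7 d, against 1.76, 0.324 and 0.608 CPM with PA23 and 2.19 and 0.510 CPM in controls at 24 h. All 7 d libraries lay above all 24 h libraries, as the choice required (log2 change 2.87, SE 0.47, adjusted p = 0.00446, edgeR). BnaC09g35160D had 5.57 to 20.5 CPM at 7 d (median 13.0, n = 6), against 0.958 to 3.86 CPM at 24 h (median 1.47, n = 5), again without overlap (log2 change 2.85, SE 0.28, adjusted p = 4.06e-05, edgeR).

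Among called genes that met the same conditions, the largest falls in roots were on C09. BnaC09g15400D had 0 to 0.997 CPM at 7 d (median 0.632) and 5.89 to 19.8 CPM at 24 h (median 7.35; log2 change -3.74, SE 0.31, adjusted p = 5.03e-06, edgeR). BnaC09g40660D had 4.29 to 8.31 CPM at 7 d (median 5.67) and 18.5 to 29.5 CPM at 24 h (median 24.7; log2 change -2.04, SE 0.16, adjusted p = 3.32e-06, edgeR). Neither gene overlapped between the harvests, which was a condition for naming it. The values of 0 CPM of BnaC09g15400D at 7 d were in PA23 replicate 3 and control replicate 3, both shallow libraries.

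Among called genes that met the same conditions in shoots, BnaC09g41340D rose most. It had 39.5, 7.40 and 43.2 CPM with PA23 and 27.6, 28.3 and 31.5 CPM in controls at 7 d, against 4.10, 3.95 and 3.12 CPM with PA23 and 3.25, 4.56 and 4.69 CPM in controls at 24 h (log2 change 2.95, SE 0.24, adjusted p = 4.42e-08, edgeR). BnaC09g01160D had 38.2 to 119 CPM at 7 d (median 103) and 15.3 to 26.7 CPM at 24 h (median 18.8; log2 change 2.18, SE 0.22, adjusted p = 3.2e-06, edgeR). The genes that fell most under these conditions were on A10. BnaA10g03720D had 0 to 1.31 CPM at 7 d (median 0.819) and 2.91 to 7.84 CPM at 24 h (median 5.11; log2 change -2.61, SE 0.39, adjusted p = 0.000165, edgeR). BnaA10g18370D had 4.46 to 18.9 CPM at 7 d (median 7.97) and 30.04 to 51.7 CPM at 24 h (median 41.4; log2 change -2.48, SE 0.28, adjusted p = 3.17e-05, edgeR). In these 4 genes all libraries of one harvest lay above all of the other, which was a condition for naming them. The value of 0 CPM of BnaA10g03720D at 7 d was in control replicate 2, a shallow library.

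Few genes of A10 and C09 were called different with PA23, and the number depended on the method and on single libraries. With 2 or 3 libraries per group, few calls do not show that few genes changed. In roots at 24 h 8 of 5039 members were called (0.159%, against 0.268% of all genes), 4 higher with PA23 (0.146% of all genes) and 4 lower (0.121%). DESeq2 called 40, and summing near-identical libraries left 2. Of the 8, 2 were on A10, both lower, and 6 on C09. No A10 gene was called with run as a covariate, with the replicate numbers as a block or with near-identical libraries summed. At an unadjusted p under 0.05 there were 591 of the 5039 members. Counts at that threshold and by DESeq2 are given without the share of all genes, so they do not single out these chromosomes. In roots at 7 d no member was called by edgeR (0% of all genes), with 383 at an unadjusted p under 0.05 and 17 calls by DESeq2. In shoots at 24 h no member was called by edgeR (0% of all genes), with 32 at an unadjusted p under 0.05 and none by DESeq2. In shoots at 7 d no member was called by edgeR (0.00177% of all genes), with 204 at an unadjusted p under 0.05 and 5 calls by DESeq2. The count in roots at 24 h was 34 without root control 7 d replicate 1, 21 without root control 7 d replicate 2 and 16 without PA23 7 d replicate 1. It was 5, 2 and 1 without PA23 24 h replicates 1, 2 and 3, and 2 without control 24 h replicate 2. In roots at 7 d it was 50 without PA23 7 d replicate 1, while dropping control 7 d replicate 2 gave 5 calls, and in shoots at 7 d it was 56 without control 7 d replicate 1.

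Among called genes with mean log2 CPM of at least 1, those with the largest changes in roots at 24 h were all on C09. BnaC09g14710D had 10.2, 11.9 and 13.2 CPM with PA23, against 3.68 and 3.82 CPM in controls (log2 change 1.65, SE 0.21, adjusted p = 0.00541, edgeR). BnaC09g39020D had 1.96, 1.36 and 1.45 CPM with PA23, against 0.395 and 0.311 CPM in controls (log2 change 2.18, SE 0.41, adjusted p = 0.0334, edgeR). All PA23 libraries of both genes lay above both controls, which was a condition for naming them. At 7 d BnaC09g14710D had 8.20, 9.57 and 7.66 CPM with PA23 and 7.56, 7.73 and 7.15 CPM in controls, values that overlapped. BnaC09g41020D had 1.523, 1.166 and 1.499 CPM with PA23, against 6.21 and 12.3 CPM in controls (log2 change -2.71, SE 0.30, adjusted p = 0.00165, edgeR). Its A10 partner BnaA10g17650D was not called. BnaC09g01720D had 69.3, 47.1 and 59.2 CPM with PA23, against 238 and 117 CPM in controls (log2 change -1.61, SE 0.27, adjusted p = 0.0233, edgeR). BnaC09g39020D missed the threshold in 9 alternatives and was called in 9. BnaC09g14710D missed it in 3 and was called in 15, and BnaC09g01720D missed it in 4 and was called in 15. BnaC09g41020D was called under each of the 18 alternatives run for it. With either control library left out, BnaC09g14710D and BnaC09g39020D missed the threshold.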

How the data were processed

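RNA-seq of 23 libraries was used. The authors deposited raw counts, whole numbers for each gene; HISAT2 and DESeq2 are named in the submitters' processing notes without versions. Build, annotation, counter, strand setting and the treatment of shared reads are not stated in those notes. The deposited gene length equals the span, so CPM per kb includes introns. Among member counts of 1 to 10, the odd share was 18.6% to 57.5% per library (median 30.3%), so intervals cover counting error only.

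The whole table was fitted with edgeR 4.0.16 (filterByExpr, TMM, robust quasi-likelihood test, Benjamini-Hochberg over all genes tested, threshold 0.05) in R 4.3.3, per tissue and over all libraries; an alternative used DESeq2 1.42.0. The script was tested on simulated data. Shares were compared with permutation tests in SciPy 1.17.1, enumerated exactly where a group had under 10 libraries. Named genes are the 2 highest and 2 lowest log2 changes per comparison among called members with mean log2 CPM of at least 1 and no overlap, the 2 most abundant per tissue and chromosome, the 3 most biased pairs per side and tissue, 2 fixed IDs and the ends of silent windows. Kept pairs had a span ratio of at most 5 to 4. Lists by gene description or cell type marker could not be filled. Members, lists and rules were chosen with earlier results of these data known.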

Additional observations from a re-analysis of the deposited data

Results flagged for a closer look

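Values of each library were compared with the others of its tissue and harvest (4 shares in 4 sets of 5 or 6 libraries, 16 looks in all; chance alone would mark about 1 in 20). Root control 7 d replicate 1 lay far from the other 5 root libraries of 7 d in its A10 share (35.2%, others 38.7% to 39.2%), in its share over the shared block (38.4%, others 44.7% to 45.6%) and over the pairs after the break (32.9%, others 43.6% to 45.4%). Shoot control 7 d replicate 1 lay far from the other 5 shoot libraries of 7 d over the shared block (42.1%, others 44.6% to 45.8%) and over the pairs after the break (37.6%, others 42.0% to 44.5%). The last of these sets was used neither to choose the pairs nor to place the break. The break was placed by the values of root control 7 d replicate 1, so its mark after the break follows from that choice. The shares overlap in genes, so the looks are not independent. Over the pairs before the break, shoot control 24 h replicate 1, a library of 1412259 counts, had 48.0% where the others of 24 h had 45.6% to 46.4%.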

How the results depend on the processing

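The A10 share difference between shoots and roots was 1.03 points without the 10 most abundant genes of each chromosome and 0.721 in the shared block, against -1.96. The change at 7 d in shoots became -0.289 and -0.685, and PA23 in shoots at 24 h became -0.152 in the block. The block share between shoots and roots was 0.394 without both 7 d control libraries of replicate 1, an alternative chosen after seeing the data, and that of PA23 in shoots at 24 h was 0.413 without libraries under 2000000 counts. PA23 in roots at 24 h called 40 members with DESeq2, 13 without a filter, 14 without libraries under 2000000 counts, 2 with the closest pairs summed and 5 with run as a covariate, against 8. PA23 in roots at 7 d called 17 with DESeq2, and PA23 in shoots at 7 d called 5 with DESeq2 and 2 without a filter, against 0. The 7 d change in shoots called 74 with the closest pairs summed, against 217. Silent windows were 20 and 0 with windows of 10 and 40 genes, and 3 and 16 with silence under 0.05 and 0.5 CPM per kb. Without strand in the score 411 pairs were kept in all blocks, against 937. The cause was not tested. Run could not be fitted in shoots, which had a single run.

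Leaving out each library in turn gave A10 share differences of -2.30 to -1.88 between shoots and roots, -0.991 to -0.207 for 7 d in roots, -1.09 to -0.884 for 7 d in shoots, and for PA23 -0.0322 to 0.403 (roots 24 h), -0.279 to 1.68 (roots 7 d), 0.175 to 0.509 (shoots 24 h) and 0.527 to 0.683 (shoots 7 d). Block share differences were 0.113 to 1.00, -1.33 to 0.118, -0.879 to -0.135, 0.000608 to 0.130, -0.457 to 3.16, -0.381 to 0.132 and 0.970 to 2.41 in the same order. Calls were 1 to 34 (PA23, roots 24 h), 0 to 50 (roots 7 d), 0 to 0 (shoots 24 h), 0 to 56 (shoots 7 d), 148 to 313 (7 d, roots), 85 to 340 (7 d, shoots) and 3697 to 3873 (shoots against roots); with 1 library left in a group, it is assumed to vary like the others.

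Replicate numbers were not taken to pair the samples, since not all same-numbered pairs correlated above 0.1: 11 of 33 within a tissue did (-0.653 to 0.356), 6 of 11 across tissues in the same treatment and harvest (-0.188 to 0.424) and 2 of the other 33 across tissues. With a replicate block 4 members were called for PA23 in roots at 24 h, 3 for PA23 in shoots at 7 d, 216 for 7 d in roots, 157 for 7 d in shoots and 3751 between tissues; with block and run together 5 were called for PA23 in roots at 24 h, 1 at 7 d and 157 for 7 d in roots.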
